A study of Homo sapiens with 70 samples.

Results

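The 10 genes of the elastic fibre and of its crosslinking that were followed across every group of the RNA-seq experiments are elastin (*ELN*), the fibrillins *FBN1* and *FBN2*, the fibrillin-binding gene *LTBP2*, the fibulins *FBLN1*, *FBLN2* and *FBLN5*, and the lysyl oxidases *LOX*, *LOXL1* and *LOXL2*. They were listed by name, and all 10 were found by symbol among the 44503 genes of the count tables. IMR90, a line of human lung fibroblasts, carried ER:HRAS G12V, a RAS fusion protein that 4-hydroxytamoxifen (4OHT) switches on. Cells without 4OHT are called Grow, and cells given 100 nM 4OHT for 6 days are called OIS, for oncogene-induced senescence (RIS in some labels). In the first experiment Grow and OIS cells carried the empty pMSCV miR vector and Grow-shA1 and OIS-shA1 cells the same vector with a hairpin against HMGA1, with 8 libraries in each group. In the second, all cells carried a pSuper and a pMSCV miR vector, both empty in Grow-v-v and OIS-v-v cells, while cells named OIS-shCEBPB, OIS-shp53 or OIS-shCEBPB-shp53 held the hairpins named, with 5 libraries each. In the third, H1299 cells, a non-small cell lung carcinoma line with no RAS vector and no 4OHT, carried the empty vector (7 libraries) or the HMGA1 hairpin (H1299-shA1, 6 libraries). The labels give no treatment for Grow cells and no cells with 4OHT but without the RAS vector, so the drug and the activity of RAS cannot be told apart. They name 1 construct for each target, so an effect on other transcripts cannot be told apart from that on the target.

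Elastic fibres give lung, skin and arteries their recoil. Tropoelastin, the product of *ELN*, is laid on a scaffold of microfibrils built mainly of fibrillins, with fibulins and latent TGF-beta binding proteins helping to place it, and lysyl oxidases then oxidise lysines so that the chains join covalently. Fibroblasts make most of these proteins in the lung, and the same lysyl oxidases crosslink fibrillar collagen.

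The library totals ran from 1903607 counts, in OIS replicate 4, to 24890797, and every other library held at least 13904974. HMGA1 read 440 to 552 CPM, the counts scaled to library sizes adjusted by TMM factors, in Grow libraries and 26.8 to 38.8 in Grow-shA1 libraries. It read 645 to 829 CPM in OIS and 51.4 to 68.6 in OIS-shA1 libraries, and 1706 to 1987 in H1299 and 359 to 447 in H1299-shA1 libraries. *CEBPB* fell from 261 to 331 CPM in OIS-v-v libraries to 26.3 to 42.8 in OIS-shCEBPB libraries. *HRAS* lay between 1095 and 1793 CPM in the Grow and OIS libraries, which both carry the fusion gene, so its level does not check the 4OHT label. Its level differed under hairpins. With the HMGA1 hairpin its log2 fold change was 0.20 in Grow (edgeR adjusted p = 0.0041) and -0.21 in OIS cells (edgeR adjusted p = 0.0139). These effects differed by -0.41 (edgeR adjusted p = 0.000552). In the second experiment *HRAS* fell from 1052 to 1313 CPM in OIS-v-v to 790 to 905 in OIS-shCEBPB libraries (log2 fold change -0.57, edgeR adjusted p = 0.000259). In OIS-shCEBPB-shp53 libraries it read 627 to 683 CPM (log2 fold change -0.91, edgeR adjusted p = 1.6e-06). In the second experiment the libraries numbered 4 and 5 stood apart from those numbered 1 to 3. Across all genes tested, the deviations of differently numbered libraries from their group means correlated at 0.238 on average within the numbers 1 to 3, at 0.358 within 4 and 5 and at -0.298 between these sets. The labels name no batch, and the protocol names 2 library kits and 2 sequencers without saying which library had which, so results of that experiment are also given within each set below. The sets were drawn after seeing these same counts, and the second holds only 2 libraries of each group. P-values within and between the sets therefore describe the split and are no independent test of it.

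The promoters are shown for 3 members that differed in their response below: *LOX*, whose response to the HMGA1 hairpin differed between Grow and OIS cells, *FBLN2*, the member with the largest fall under that hairpin in both, and *LOXL1*, which rose under the CEBPB hairpin. They are the 250 bases before the start of each gene, 5′ to 3′ on the gene's strand, from RefSeq on GRCh38.p14, a build other than that of the counts. The *LOX* stretch lies at chr5:122078260-122078509 on the minus strand, that of *FBLN2* at chr3:13548875-13549124 on the plus strand and that of *LOXL1* at chr15:73926212-73926461 on the plus strand. Capitals mark a CCAAT box on either strand.
LOX: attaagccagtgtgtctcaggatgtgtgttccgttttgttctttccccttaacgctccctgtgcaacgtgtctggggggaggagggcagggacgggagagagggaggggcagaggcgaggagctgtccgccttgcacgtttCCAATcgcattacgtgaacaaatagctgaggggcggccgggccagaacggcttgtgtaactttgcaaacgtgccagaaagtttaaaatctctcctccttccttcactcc
FBLN2: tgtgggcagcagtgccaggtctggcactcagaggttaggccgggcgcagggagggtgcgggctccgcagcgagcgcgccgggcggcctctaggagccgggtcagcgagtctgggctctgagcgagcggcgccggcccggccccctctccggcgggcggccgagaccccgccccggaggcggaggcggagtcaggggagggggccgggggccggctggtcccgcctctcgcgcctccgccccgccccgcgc
LOXL1: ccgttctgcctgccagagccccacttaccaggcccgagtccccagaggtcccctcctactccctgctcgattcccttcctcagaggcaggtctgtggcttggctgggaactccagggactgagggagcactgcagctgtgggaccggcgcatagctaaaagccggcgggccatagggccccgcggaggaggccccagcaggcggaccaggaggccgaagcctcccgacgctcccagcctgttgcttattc
The table held promoters of 8 of the 10 members, those other than *ELN* and *LOXL2*. HMGA1 binds AT-rich DNA through its AT-hooks, and the share of A and T was 44.8% for *LOX*, 33.2% for *LOXL1* and 19.6% for *FBLN2*, against a median of 42% over 27305 promoters. Less A and T than in *FBLN2* was found in 2.55% of promoters, and less than in *LOX* in 55.7%. The CCAAT box, the letters CCAAT on either strand, was in the promoters of *LOX*, *FBN2* and *FBLN5* and in 33% of all promoters. The C/EBP core, the letters TTNNGCAA on either strand, was in none of the 8 and in 9.13% of all promoters, and a p53 half-site was in none of the 8 and in 5.53%. These letters say nothing of binding.

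Per kilobase of exon, *LOXL2* stood highest in every IMR90 group. In Grow libraries it read 380 ± 27.1 CPM per kb (SD, n = 8), followed by *LOX* at 226 ± 21.7 and *FBN1* at 114 ± 13.8, with no overlap between these 3 genes. *LTBP2* at 33.6 ± 2.47 and *FBLN5* at 30.5 ± 1.31 CPM per kb overlapped over the libraries, and so did *LOXL1* at 17.2 ± 1.16, *FBN2* at 15.7 ± 2.49 and *ELN* at 10.9 ± 4.29. *FBLN1* lay between these sets at 21.7 ± 0.777 CPM per kb and *FBLN2* stood lowest at 2.55 ± 0.260. In OIS libraries *LOX* was at 17.9 ± 1.31 CPM per kb, under *FBN1* at 62.7 ± 4.32 and *LTBP2* at 24.1 ± 2.46, and *ELN* had become the lowest at 0.631 ± 0.110. Of the summed level of the 10 genes per kb, *LOX* made up 26.5% in Grow and 7.40% in OIS libraries, and *FBN1* 13.4% and 25.9%. Against Grow libraries, H1299 cells held lower levels of all but *FBLN2*, while *FBLN1* at 63.3 CPM stood above its 25.9 CPM in OIS libraries. The sum over the 10 genes was 380 ± 16.2 CPM (SD, n = 7), against 6022 ± 472 CPM (SD, n = 8) in Grow libraries, in tables that were scaled separately. There *LOXL2* led again at 13.7 ± 1.61 CPM per kb, next to *LTBP2* at 11.4 ± 0.698 and *FBLN1* at 9.56 ± 0.236, while *FBLN5* was at 0.0469 ± 0.0203 and *ELN* at 0.00619 ± 0.00757 CPM per kb.

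The first comparison asks how the fibre genes differ between OIS and Grow cells. All 10 fell in OIS past the threshold, where 35.9% of the 13304 genes tested were lower and 38.8% higher. For each of the 10 every OIS library lay below every Grow library. The share of all genes without such overlap was not counted, here or in any comparison below. The median log2 fold change of the 10 was -1.87, against 0.027 over all genes. Elastin and the enzyme *LOX* fell furthest, to levels 16.9-fold and 12.5-fold lower, and *LTBP2* least, 1.36-fold. *ELN*, which encodes the elastic core of the fibre, read 31.5, 58.7 and 115 CPM in the lowest, median and highest Grow library and 2.76, 3.88 and 5.11 in the OIS libraries (log2 fold change -4.08, standard error 0.21, edgeR adjusted p = 1.94e-16). *LOX*, which encodes the founding lysyl oxidase, went from 1067, 1235 and 1374 CPM to 86.6, 94.6 and 109 (log2 fold change -3.64, standard error 0.06, edgeR adjusted p = 9.33e-28). The Grow libraries varied widely for *ELN*, with an SD of 26.6 on a mean of 67.5 CPM, and little for *LOX*, with an SD of 118 on 1224.

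The paralogous oxidases fell less than *LOX*. *LOXL1*, which binds tropoelastin and is needed to renew elastic fibres in mice, read 55.4, 63.3 and 68.5 CPM in Grow and 9.48, 11.5 and 12.8 in OIS libraries (log2 fold change -2.45, standard error 0.06, edgeR adjusted p = 2.07e-23). *LOXL2*, which crosslinks the collagen of basement membranes, went from 1936, 2165 and 2408 CPM to 581, 656 and 748 (log2 fold change -1.69, standard error 0.06, edgeR adjusted p = 3.72e-21). Of the scaffold genes, *FBN2*, the fibrillin of developing tissue, fell more than *FBN1*, the fibrillin of adult microfibrils: by 1.89 (standard error 0.08) against 0.84 (standard error 0.06) on the log2 scale. *FBN2* read 163, 220 and 242 CPM in Grow and 48.1, 53.6 and 64.8 in OIS libraries, and *FBN1* 1388, 1713 and 1910 and then 824, 937 and 979. *LTBP2* fell from 279, 310 and 333 CPM to 179, 221 and 250 (log2 fold change -0.44, standard error 0.05, edgeR adjusted p = 2.26e-08). Among the fibulins, which bridge elastin, microfibrils and basement membranes, the order was *FBLN1* at -2.49 (standard error 0.05), *FBLN5* at -1.85 (standard error 0.06) and *FBLN2* at -1.23 (standard error 0.12) on the log2 scale. *FBLN2* lay between 11.2 and 14.9 CPM in Grow and between 3.43 and 9.26 in OIS libraries, and its highest OIS value came from the shallow replicate 4, where it rested on 19 counts.

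General fibroblast genes moved with this result. The 6 fibroblast markers (*COL1A1*, *COL1A2*, *COL6A3*, *PDGFRB*, *THY1* and *VIM*), all above 1 CPM in every IMR90 group, summed to 43326 to 55066 CPM in Grow and 9937 to 12350 in OIS libraries. Of 4 smooth muscle markers, *MYH11* and *DES* stayed under 1 CPM on average, and the list summed to 578 to 681 CPM in Grow and 45.9 to 68.5 in OIS libraries, nearly all from *ACTA2* and *CNN1*. Of 4 leukocyte markers only *CD68* passed 1 CPM, *CD3E* was at 0 in every Grow and OIS library, and the list summed to 16.1 to 22.5 CPM in Grow and 44.9 to 58.8 in OIS. The epithelial list, with *CDH1* and *EPCAM* under 1 CPM, summed to 71.1 to 93.9 and 43.9 to 58.7 CPM, and the 3 endothelial markers matched summed to 0.271 to 1.74 and 1.06 to 2.44 CPM. The part of these markers in the falls was not tested. In bulk RNA, fewer cells of a type and less RNA per cell cannot be told apart.

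**Figure D1:**
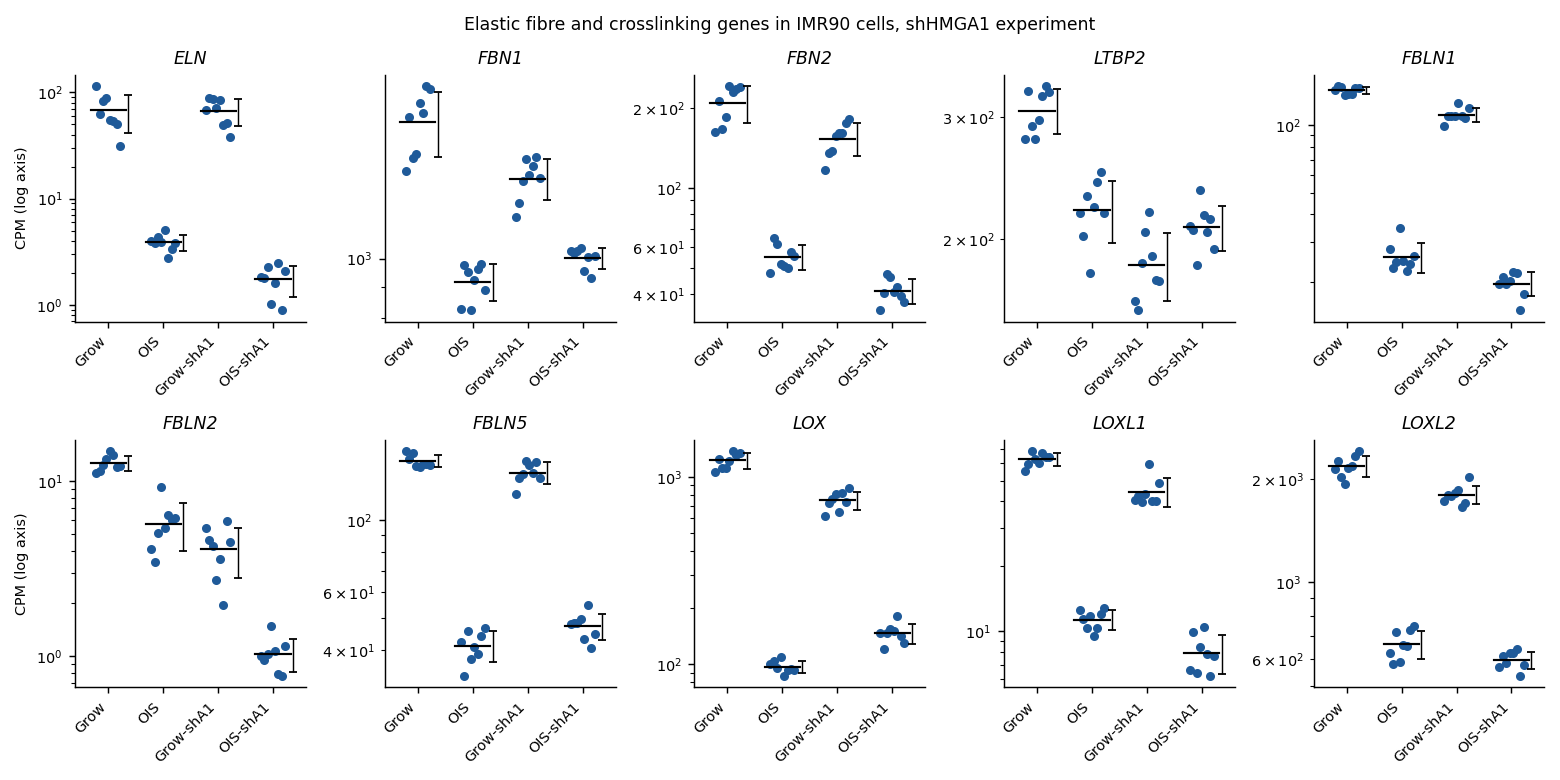
CPM of each of the 10 genes (vertical log axis) in the 8 libraries of Grow, OIS, Grow-shA1 and OIS-shA1 IMR90 cells. Points are libraries, lines are group means and bars give the SD; every OIS point lies under every Grow point for all 10 genes, and *LOX* is lower in Grow-shA1 than in Grow but higher in OIS-shA1 than in OIS.

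The second experiment posed the same question in cells with both empty vectors. In OIS-v-v against Grow-v-v libraries 9 of the 10 fell and none rose past the threshold, where 23.2% of the 13344 genes tested were lower and 22.7% higher. The median of the 10 was -1.13 on the log2 scale, against 0.007 over all genes. *ELN* read 86.7, 86.7, 96.2, 112 and 87.8 CPM in Grow-v-v replicates 1 to 5 and 13, 12.5, 13.6, 7.28 and 7.72 in OIS-v-v replicates 1 to 5 (log2 fold change -3.11, standard error 0.18, edgeR adjusted p = 7.07e-08). *LOX* read 916, 870, 852, 838 and 530 CPM in Grow-v-v and 441, 430, 433, 233 and 213 in OIS-v-v libraries (log2 fold change -1.19, standard error 0.23, edgeR adjusted p = 0.000897). For both genes all OIS-v-v libraries lay below all Grow-v-v libraries, and replicates 4 and 5 were the lowest of the OIS-v-v libraries. *FBLN1* fell by 2.13, *FBLN2* by 2.18, *LOXL1* by 1.67, *FBN2* by 1.08, *FBLN5* by 0.65 and *LOXL2* by 0.57 on the log2 scale, with edgeR adjusted p-values of 5.47e-08 to 0.00261 and no overlap between the groups. Within the libraries numbered 1 to 3 and those numbered 4 and 5, *LOX* stood at -1.02 and -1.61, *LOXL1* at -1.58 and -1.86, *LOXL2* at -0.38 and -0.93, *FBN2* at -0.89 and -1.42, *FBLN1* at -1.98 and -2.34, *FBLN2* at -2.40 and -1.92 and *FBLN5* at -0.49 and -0.94. The fibroblast markers summed to 44023 to 58560 CPM in Grow-v-v, 19174 to 27729 in OIS-v-v, 24699 to 26277 in OIS-shCEBPB, 24775 to 26959 in OIS-shp53 and 25199 to 29548 in OIS-shCEBPB-shp53 libraries. The smooth muscle markers summed to 783 to 880, 85.5 to 140, 170 to 209, 70.5 to 81.0 and 117 to 144 CPM in the same order, so that OIS-shCEBPB libraries lay above all OIS-v-v libraries, with *ACTA2* at 78.6 CPM on average in OIS-v-v and 146 in OIS-shCEBPB. The part of these markers in the results was not tested.

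*FBN1* and *LTBP2* depended on the libraries. *FBN1* read 1436, 1464, 1266, 1246 and 876 CPM in Grow-v-v and 873, 980, 836, 1026 and 1094 in OIS-v-v libraries, which overlapped. Its log2 fold change was -0.38 (standard error 0.14, edgeR adjusted p = 0.0375), with -0.64 within the libraries numbered 1 to 3 and 0.00 within those numbered 4 and 5, and with the replicate number as a block the adjusted p was 0.0711. *LTBP2* read 334, 367, 329, 408 and 350 CPM and then 508, 566, 491, 327 and 371: higher in OIS-v-v replicates 1 to 3 than in any Grow-v-v library, and not in replicates 4 and 5. Its log2 fold change was 0.35 (standard error 0.14, edgeR adjusted p = 0.0605), 0.60 within the first set and -0.11 within the second, and 0.44 (adjusted p = 0.0111) without OIS-v-v replicate 4 or 0.40 (adjusted p = 0.0403) without OIS-v-v replicate 5. The fall of *FBN1* lost its call without any one of 7 of the 10 libraries, at adjusted p-values of 0.0548 to 0.0926. Between the 2 sets, which were drawn from these same counts, the OIS effect itself differed past the threshold for 7 of the 10 members, where 27.7% of the 14101 genes tested did. *ELN*, *FBLN1*, *FBLN5*, *LOX*, *LOXL2* and *LTBP2* had lower log2 fold changes in the libraries numbered 4 and 5, and *FBN1* a higher one. *ELN* had a log2 fold change of -2.79 in the first set and of -3.73 in the second, which differed by -0.95 (standard error 0.16, edgeR adjusted p = 0.000863). Whether the falls differ between the first and second experiment was not tested, since the tables hold other vectors and were scaled separately.

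HMGA1 knock-down lowered most members in growing cells. In Grow-shA1 against Grow libraries 9 of the 10 fell and none rose, where 15.1% of the 13072 genes tested were lower and 14.8% higher, and the median of the 10 was -0.40 on the log2 scale against 0.007 over all genes. *FBLN2* changed most. It read 11.2, 12.4 and 14.9 CPM in the lowest, median and highest Grow library and 1.96, 4.38 and 5.92 in Grow-shA1 libraries (log2 fold change -1.62, standard error 0.14, edgeR adjusted p = 1.11e-09). *LTBP2* went from 279, 310 and 333 CPM to 158, 180 and 219 (log2 fold change -0.74, standard error 0.06, edgeR adjusted p = 2.58e-10). *LOX* went from 1067, 1235 and 1374 CPM to 621, 749 and 868 (log2 fold change -0.71, standard error 0.06, edgeR adjusted p = 2.11e-09). These 3 genes and *FBLN1* had no overlap between the groups. Smaller falls were those of *LOXL1* by 0.50, *FBN2* by 0.44, *FBLN1* by 0.36, *FBN1* by 0.30 and *LOXL2* by 0.28 on the log2 scale. *FBLN5*, at -0.12 (edgeR adjusted p = 0.0446), passed the threshold narrowly and lost the call without any one of 10 of the 16 libraries, at adjusted p-values of 0.0526 to 0.105. *ELN* read 31.5 to 115 CPM in Grow and 37.9 to 88.0 in Grow-shA1 libraries (log2 fold change -0.00, standard error 0.19, 95% interval -0.38 to 0.37). Changes within that interval were not detectable in this fit. With the replicate number as a block *ELN* stood at 0.03 with a smaller standard error of 0.10 (edgeR adjusted p = 0.852). The sums of general markers were lower as well: the fibroblast list summed to 43326 to 55066 CPM in Grow and 35595 to 42823 in Grow-shA1 libraries, with *COL1A1* at 23094 and 15264 on average, and the smooth muscle list to 578 to 681 and 351 to 511 CPM, both without overlap. Not every fibroblast marker was lower: *COL6A3* averaged 10585 CPM in Grow and 11294 in Grow-shA1 libraries, and *VIM* 3079 and 3000. The part of the markers in the falls was not tested.

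In OIS cells the same hairpin moved the members in both directions. The fibroblast markers summed to 9937 to 12350 CPM in OIS and 10375 to 12055 in OIS-shA1 libraries, but single markers moved both ways. *COL1A2* rose from 816 to 1055 CPM to 1075 to 1426, and *PDGFRB* fell from 103 to 136 CPM to 67.3 to 92.4, both without overlap. The smooth muscle list summed to 45.9 to 68.5 CPM in OIS and 34.9 to 51.8 in OIS-shA1 libraries, with overlap. The part of these markers in the results was not tested. In OIS-shA1 against OIS libraries 6 fell and 3 rose, where 17.1% of the 13327 genes tested were lower and 18.8% higher. *FBLN2* fell again, from 3.43, 5.69 and 9.26 CPM to 0.769, 1.01 and 1.48 (log2 fold change -2.40, standard error 0.18, edgeR adjusted p = 2.7e-11). *ELN*, already low in OIS, fell further, from 2.76, 3.88 and 5.11 CPM to 0.887, 1.81 and 2.50 (log2 fold change -1.14, standard error 0.18, edgeR adjusted p = 1.36e-05). *LOX* rose, from 86.6, 94.6 and 109 CPM to 120, 146 and 181 (log2 fold change 0.60, standard error 0.06, edgeR adjusted p = 1.2e-08). For all 3 genes no OIS-shA1 library overlapped an OIS library. *FBN2* fell by 0.43 and *FBLN1* by 0.36 on the log2 scale, without overlap of the groups. *LOXL1* fell by 0.51 and *LOXL2* by 0.15 (edgeR adjusted p = 0.0213 for *LOXL2*), both with overlapping groups. *FBN1* rose by 0.13 (edgeR adjusted p = 0.0192) and *FBLN5* by 0.19 (edgeR adjusted p = 0.0298), both with overlapping groups. *LTBP2* read 179 to 250 CPM in OIS and 184 to 236 in OIS-shA1 libraries (log2 fold change -0.09, edgeR adjusted p = 0.206), and without OIS replicate 4, the shallow library, -0.12 (adjusted p = 0.0451). The call of *FBN1* was lost without OIS replicate 1 (0.11, adjusted p = 0.0607). That of *FBLN5* was lost without OIS replicate 2, OIS replicate 6, OIS-shA1 replicate 4 or OIS-shA1 replicate 6, at log2 fold changes of 0.14, 0.17, 0.18 and 0.15. With library sizes alone as the scaling, which moved the median of all genes by -0.086, *FBN1* stood at 0.043 and *FBLN5* at 0.10, neither past the threshold, and *LTBP2* fell by 0.18 (adjusted p = 0.00901).

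The test of the difference between the 2 effects of the hairpin, that in OIS less that in Grow cells, called 6 members. The effect was higher in OIS for 4 (*LOX*, *LTBP2*, *FBN1* and *FBLN5*), where 12.2% of the 13903 genes tested were, and lower for 2 (*ELN* and *FBLN2*), where 11.4% were. *LOX* had the largest difference, 1.31 on the log2 scale (standard error 0.10, edgeR adjusted p = 1.07e-13), with the fall in Grow and the rise in OIS described above. *LTBP2* differed by 0.65 (standard error 0.08, edgeR adjusted p = 1.56e-07), *FBN1* by 0.43 (standard error 0.08, edgeR adjusted p = 6.67e-05) and *FBLN5* by 0.31 (standard error 0.08, edgeR adjusted p = 0.00388). *ELN* differed by -1.12 (standard error 0.36, edgeR adjusted p = 0.0194) and *FBLN2* by -0.77 (standard error 0.24, edgeR adjusted p = 0.0157). For *FBN2*, *FBLN1*, *LOXL1* and *LOXL2* the differences were 0.02, 0.01, -0.00 and 0.12, with 95% intervals that all lay between -0.23 and 0.26. The call for *FBLN5* was lost with library sizes alone (0.20, adjusted p = 0.0602). The effect of the hairpin on *HRAS* differed between the states as well, by -0.41, and its part in these differences was not tested.

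**Figure D2:**
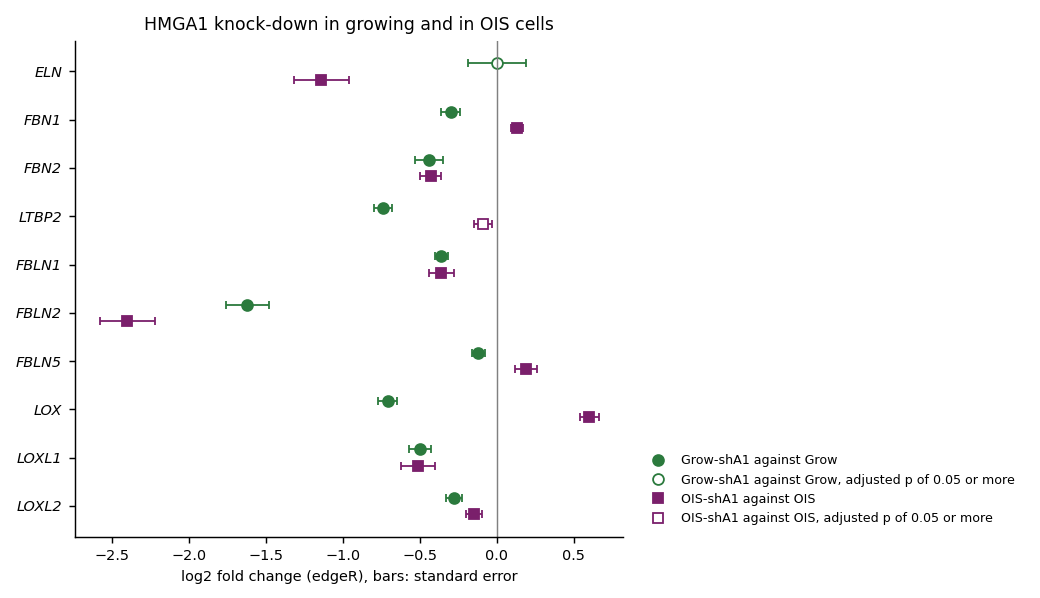
Log2 fold change under the HMGA1 hairpin for each gene (rows) in Grow cells (circles) and in OIS cells (squares). Bars are standard errors derived from the edgeR F test, and open symbols have an adjusted p of 0.05 or more. *LOX* lies at -0.71 in Grow and at 0.60 in OIS, *ELN* at -0.00 and -1.14, and *FBLN2* is the lowest in both at -1.62 and -2.40.

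Within HMGA1-depleted cells the response to 4OHT kept its direction for 9 members. OIS-shA1 against Grow-shA1 libraries gave 9 falls, where 36% of the 13239 genes tested were lower, and 1 rise, where 37.1% were higher. *ELN* read 37.9, 70.1 and 88.0 CPM in Grow-shA1 and 0.887, 1.81 and 2.50 in OIS-shA1 libraries (log2 fold change -5.21, standard error 0.19, edgeR adjusted p = 7.54e-19). *LOX* went from 621, 749 and 868 CPM to 120, 146 and 181 (log2 fold change -2.35, standard error 0.07, edgeR adjusted p = 1.17e-20). The other falls ran from -0.42 for *FBN1* to -2.49 for *FBLN1*, without overlap of the groups. *LTBP2* was the exception, at 158, 180 and 219 CPM in Grow-shA1 and 184, 208 and 236 in OIS-shA1 libraries, overlapping groups (log2 fold change 0.19, standard error 0.06, edgeR adjusted p = 0.00493).

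The hairpin against *CEBPB*, which encodes a transcription factor that drives inflammatory genes in senescence, went with higher fibre genes. In OIS-shCEBPB against OIS-v-v libraries 6 of the 10 rose and none fell, where 9.09% of the 13396 genes tested were higher and 8% lower, and all 10 log2 fold changes were above 0, with a median of 0.49 against -0.002 over all genes. *ELN* read 21.4, 22.8, 28.6, 41.4 and 37.2 CPM in replicates 1 to 5, against 13, 12.5, 13.6, 7.28 and 7.72 in OIS-v-v (log2 fold change 1.48, standard error 0.23, edgeR adjusted p = 0.000763). That left it under the 86.7 to 112 CPM of the Grow-v-v libraries. The smooth muscle markers were higher and *HRAS* lower in the same libraries, as given above, and their part in the rises was not tested. *LOXL1* read 79.5, 78.9, 81.6, 81.8 and 80.4 CPM against 53.5, 52.1, 58.9, 38.8 and 43.0 (log2 fold change 0.71, standard error 0.10, edgeR adjusted p = 0.00037). *FBLN1* read 60.2, 60.3, 58.2, 85.8 and 78.3 CPM against 43.4, 40.5, 45.6, 42.8 and 48.1 (log2 fold change 0.64, standard error 0.11, edgeR adjusted p = 0.00168). In these 3 genes, in *FBLN5* (0.51, edgeR adjusted p = 0.00419) and in *LTBP2* (0.46, edgeR adjusted p = 0.0323) every OIS-shCEBPB library lay above every OIS-v-v library, and *FBN2* (0.48, edgeR adjusted p = 0.02) overlapped. *FBN1* did not pass, at 811 to 1084 CPM against 836 to 1094 and (log2 fold change 0.01, 95% interval -0.18 to 0.20).

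The replicate number as a block added 2 members to the CEBPB result. Whether equal numbers mark pairs, beyond the sets 1 to 3 and 4 and 5, was not tested. With the block 8 members were called, where 31.9% of all genes were: *LOX* stood at 0.53 (standard error 0.07, edgeR adjusted p = 9.87e-05) and *LOXL2* at 0.25 (edgeR adjusted p = 0.0206), against 0.49 (adjusted p = 0.175) and 0.23 (adjusted p = 0.239) without it. *LOX* read 600, 595, 516, 376 and 377 CPM in replicates 1 to 5, against 441, 430, 433, 233 and 213 in OIS-v-v. Each value was higher than that of the OIS-v-v library of the same number, though the groups overlapped. Within the libraries numbered 1 to 3 *ELN* rose by 0.90 (standard error 0.10) and within those numbered 4 and 5 by 2.40 (standard error 0.11), and these differed by 1.49 (standard error 0.16, edgeR adjusted p = 1.39e-06). The effect differed in this way for 6 members (*ELN*, *FBLN1*, *LOX*, *LOXL1*, *LOXL2* and *LTBP2*), all larger in the second set, where 6.12% of the 14068 genes tested differed in either direction. In the first and second set *LOX* stood at 0.38 and 0.76, *LOXL1* at 0.54 and 0.99, *FBLN1* at 0.46 and 0.86, *LTBP2* at 0.29 and 0.78, *FBN2* at 0.40 and 0.60 and *FBLN5* at 0.43 and 0.65. *LOXL2* stood at 0.08 (edgeR adjusted p = 0.164) in the first and at 0.50 (edgeR adjusted p = 2.68e-06) in the second, so its call with the block was not met within the libraries numbered 1 to 3. The call of *LTBP2* was lost without OIS-v-v replicate 5 or without OIS-shCEBPB replicate 1, 2 or 4, at log2 fold changes of 0.39, 0.44, 0.43 and 0.48. That of *FBN2* was lost without OIS-shCEBPB replicate 2 (0.41, adjusted p = 0.053).

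The hairpin labelled shp53 moved few members. Only *FBLN1* passed in OIS-shp53 against OIS-v-v libraries, higher, where 2.47% of the 13378 genes tested were higher and 1.97% lower. It read 61.9, 61.2, 61.2, 61.1 and 72.1 CPM against 43.4, 40.5, 45.6, 42.8 and 48.1, without overlap (log2 fold change 0.53, standard error 0.06, edgeR adjusted p = 0.000819). With the replicate block 5 members were called, where 22.7% of all genes were. *ELN* stood at -0.49 (edgeR adjusted p = 0.0237), *FBN2* at -0.31 (edgeR adjusted p = 0.0117), *FBLN5* at -0.16 (edgeR adjusted p = 0.03) and *FBLN2* at 0.69 (edgeR adjusted p = 0.00958), none of them past the threshold without the block. *ELN* read 7.68, 8.60, 6.68, 7.55 and 7.47 CPM in OIS-shp53 libraries. These lay below the OIS-v-v library of the same number in replicates 1 to 3 and close to it, at 7.28 and 7.72, in replicates 4 and 5. Its log2 fold change was -0.77 (edgeR adjusted p = 2.16e-06) within the first set and 0.00 within the second, and the difference, 0.77 (standard error 0.17, edgeR adjusted p = 0.00535), passed the threshold, as did that of *FBN2* at 0.46. *FBN2* stood at -0.50 within the first set and at -0.03 (edgeR adjusted p = 0.874) within the second, *FBLN5* at -0.25 and -0.03 (edgeR adjusted p = 0.89) and *FBLN2* at 0.65 and 0.74 (edgeR adjusted p = 0.0883), so of these calls none was met within the libraries numbered 4 and 5. *FBLN1* stood at 0.51 and 0.55 and was called in both sets. The 2 members that differed between the sets stand beside 6.37% of the 13993 genes tested. Without OIS-v-v replicate 4, *ELN* (-0.63, adjusted p = 0.0387) and *FBN2* (-0.40, adjusted p = 0.031) passed without the block as well.

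With both hairpins 6 members rose and none fell, where 17.1% of the 13388 genes tested were higher and 16.5% lower. *FBLN1* rose most, to 108, 108, 108, 109 and 104 CPM from 43.4, 40.5, 45.6, 42.8 and 48.1 (log2 fold change 1.28, standard error 0.05, edgeR adjusted p = 1.04e-08). *FBLN2* read 4.02, 2.39, 2.39, 3.41 and 2.99 CPM against 1.52, 1.13, 1.17, 1.90 and 1.87 (log2 fold change 1.0, standard error 0.21, edgeR adjusted p = 0.00293). Neither gene overlapped between the groups. *LOXL1* rose by 0.71, *FBLN5* by 0.39 and *FBN2* by 0.40 on the log2 scale, the last with overlap. *ELN* read 15, 13, 15.5, 20.9 and 19.8 CPM, which overlapped OIS-v-v (log2 fold change 0.63, standard error 0.20, edgeR adjusted p = 0.0262). It stood at 0.15 (edgeR adjusted p = 0.157) within the libraries numbered 1 to 3 and at 1.44 (edgeR adjusted p = 1.04e-08) within those numbered 4 and 5, and its call was lost without OIS-shCEBPB-shp53 replicate 4 (0.55) or 5 (0.57). With the block 8 members were called, where 43.4% of all genes were, with *LOX* at 0.26 (edgeR adjusted p = 0.00236) and *LOXL2* at 0.20 (edgeR adjusted p = 0.0282) added. The effect differed between the sets for 4 members, *ELN*, *LOXL1*, *LOXL2* and *LTBP2*, where 14.6% of the 14064 genes tested differed. In the first and second set *FBLN1* stood at 1.33 and 1.23, *FBLN2* at 1.21 and 0.77, *LOXL1* at 0.58 and 0.96, *FBN2* at 0.32 and 0.56, *FBLN5* at 0.34 and 0.52 and *LOXL2* at 0.08 and 0.38.

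Whether the hairpins acted other than additively on the log2 scale was tested as an interaction, which called none of the 10 and 0.0432% of the 13873 genes tested by edgeR (6 genes, with 682 at an unadjusted p under 0.05 and 30 by DESeq2). The members' estimates ran from -0.33 for *ELN* and *LOX* to 0.26 for *FBN2*, with standard errors of 0.12 to 0.36. With the replicate block *LOX* was called at -0.38 (edgeR adjusted p = 0.0359), where 0.75% of all genes were. Within the libraries numbered 1 to 3 the estimate was 0.02 for *ELN* and within those numbered 4 and 5 it was -0.96 (edgeR adjusted p = 0.000997). The first set called *FBN2* (0.41, edgeR adjusted p = 0.0175) and *FBLN1* (0.35, edgeR adjusted p = 0.00382), where 463 of 13947 genes tested were called. Besides *ELN* the second called *LOX* (-0.62), *LTBP2* (-0.52) and *LOXL2* (-0.31), with edgeR adjusted p-values of 7.7e-05 to 0.023, where 294 of 13814 were.

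**Figure D3:**
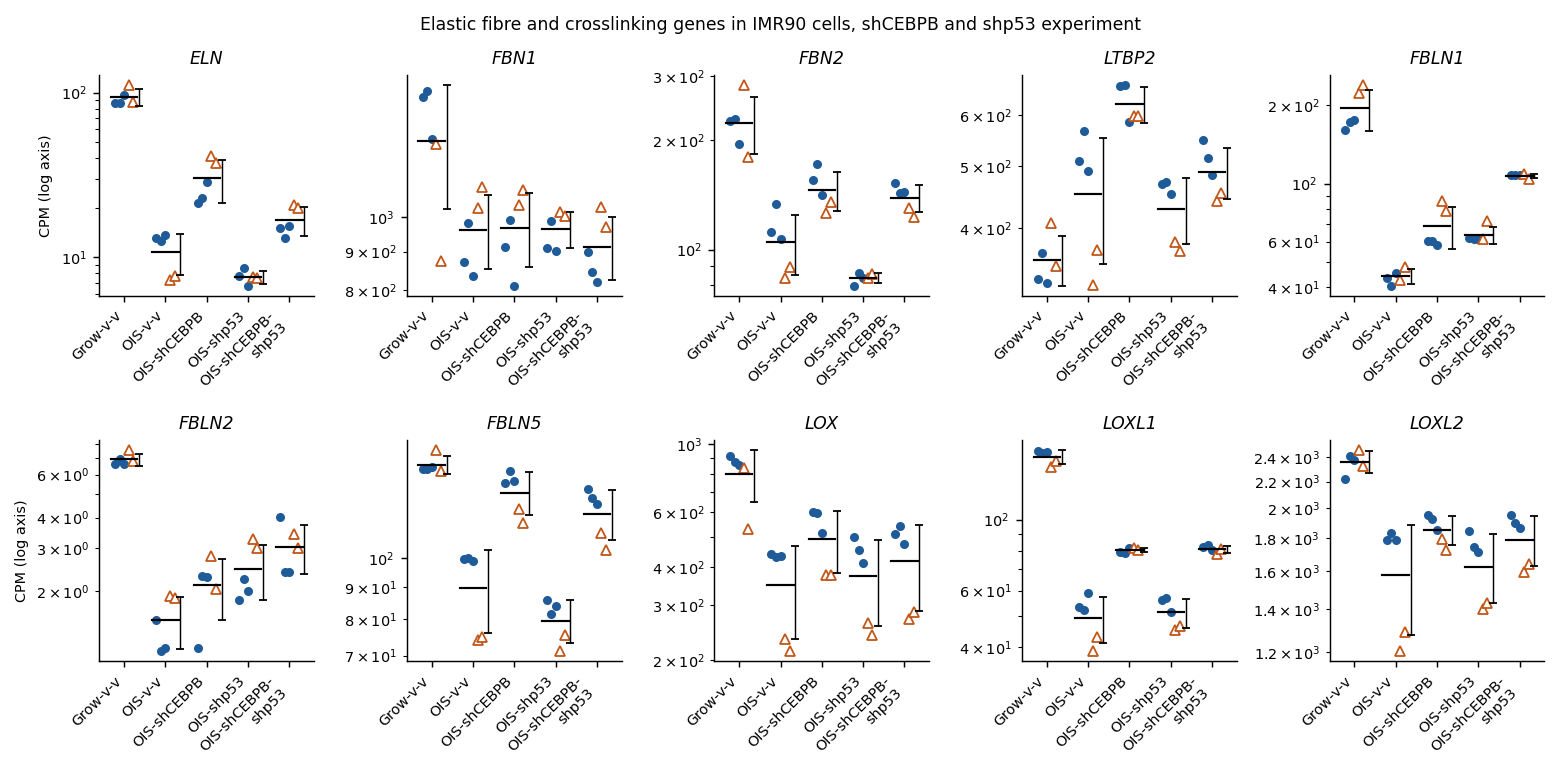
CPM of each of the 10 genes (vertical log axis) in the 5 libraries of each group of the second experiment. Filled circles are libraries numbered 1 to 3 and open triangles those numbered 4 and 5, lines are means of all 5 and bars give the SD; in OIS-v-v the triangles lie at 233 and 213 CPM for *LOX* and the circles at 430 to 441.

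**Figure D4:**
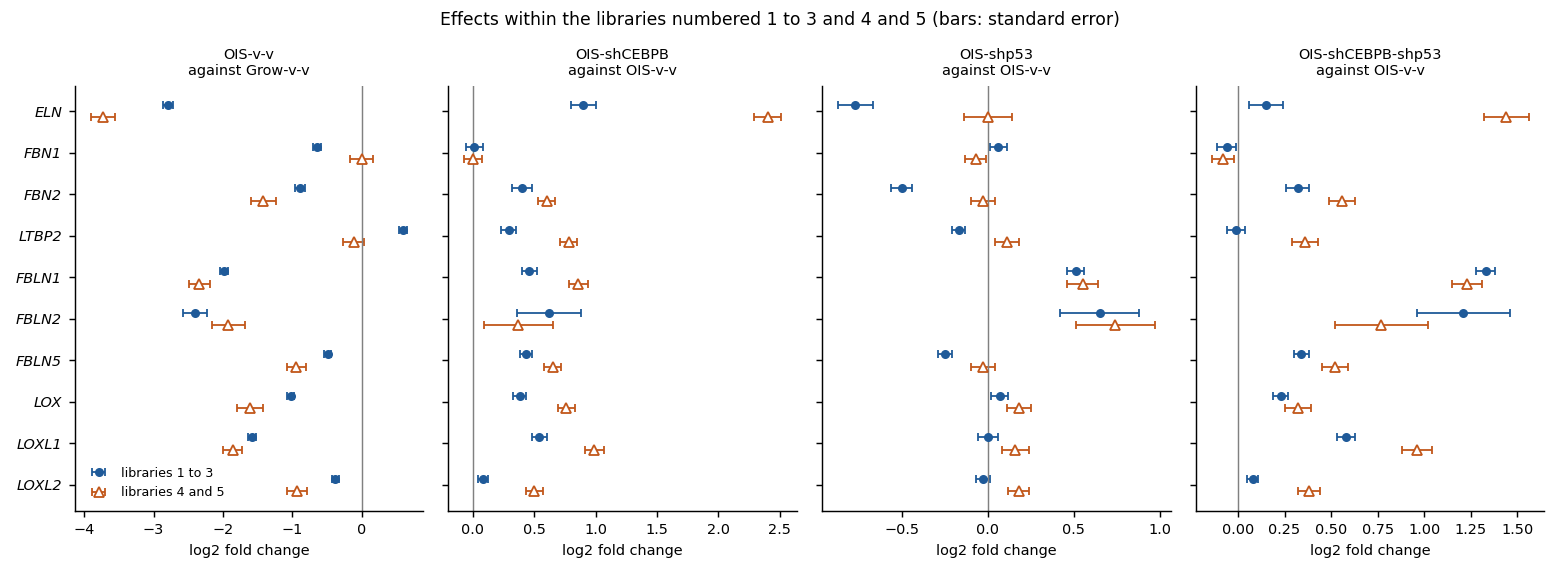
Log2 fold changes (horizontal axis) of each gene within the libraries numbered 1 to 3 (circles) and 4 and 5 (triangles) for the 4 comparisons of the second experiment. Bars are standard errors derived from the edgeR F test. *ELN* shows the widest gaps, at 0.90 and 2.40 with the CEBPB hairpin and at 0.15 and 1.44 with both hairpins.

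H1299 cells held too little *ELN* and *FBLN5* to test. *ELN* had 0 to 0.131 CPM and *FBLN5* 0.0866 to 0.422 CPM over the 13 libraries, below the filter on low counts. *ELN* was at 0 counts in 3 of 7 H1299 and 4 of 6 H1299-shA1 libraries, and a count of 0 in a library allows up to 3 counts. Of the fibroblast markers only *VIM* and *COL1A1* passed 1 CPM in H1299 libraries. *VIM* read 1623 to 1762 CPM in H1299 and 1906 to 2189 in H1299-shA1 libraries. The epithelial list summed to 816 to 1132 and 627 to 721 CPM, both without overlap. The smooth muscle list, at 2.53 to 4.16 and 3.84 to 5.73 CPM, and the leukocyte list, at 37.7 to 62.6 and 48.4 to 74.4 CPM, overlapped. The part of these markers in the results below was not tested. HMGA1 knock-down there called 3 of the 8 members tested: 2 rose, where 8.65% of the 14840 genes tested were higher, and 1 fell, where 6.93% were lower. *LOXL1* read 5.66, 8.34 and 9.18 CPM in the lowest, median and highest H1299 library and 9.27, 11.2 and 12.9 in H1299-shA1 libraries, without overlap (log2 fold change 0.45, standard error 0.10, edgeR adjusted p = 0.00498). *LOX*, scarce in these cells, read 1.48, 2.23 and 2.82 CPM and then 2.36, 3.25 and 3.66, with overlap (log2 fold change 0.55, standard error 0.15, edgeR adjusted p = 0.0171). *FBN1* read 43.1, 48.0 and 52.4 CPM and then 36.6, 40.3 and 44.3, with overlap (log2 fold change -0.24, standard error 0.05, edgeR adjusted p = 0.00496). *LOXL1* thus rose under the hairpin in H1299 and fell in both IMR90 states, and the difference between the lines was not tested. *FBN2* at -0.18, *LOXL2* at 0.19, *FBLN2* at -0.15, *LTBP2* at -0.04 and *FBLN1* at 0.00 did not pass, with edgeR adjusted p-values of 0.0912 to 0.998. Without H1299 replicate 1, *FBN2* (-0.22, adjusted p = 0.0277) and *LOXL2* (0.24, adjusted p = 0.0424) passed. *FBN2* also passed without H1299-shA1 replicate 3 (-0.23), and *LOXL2* without H1299-shA1 replicate 7 (0.25).

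**Figure D5:**
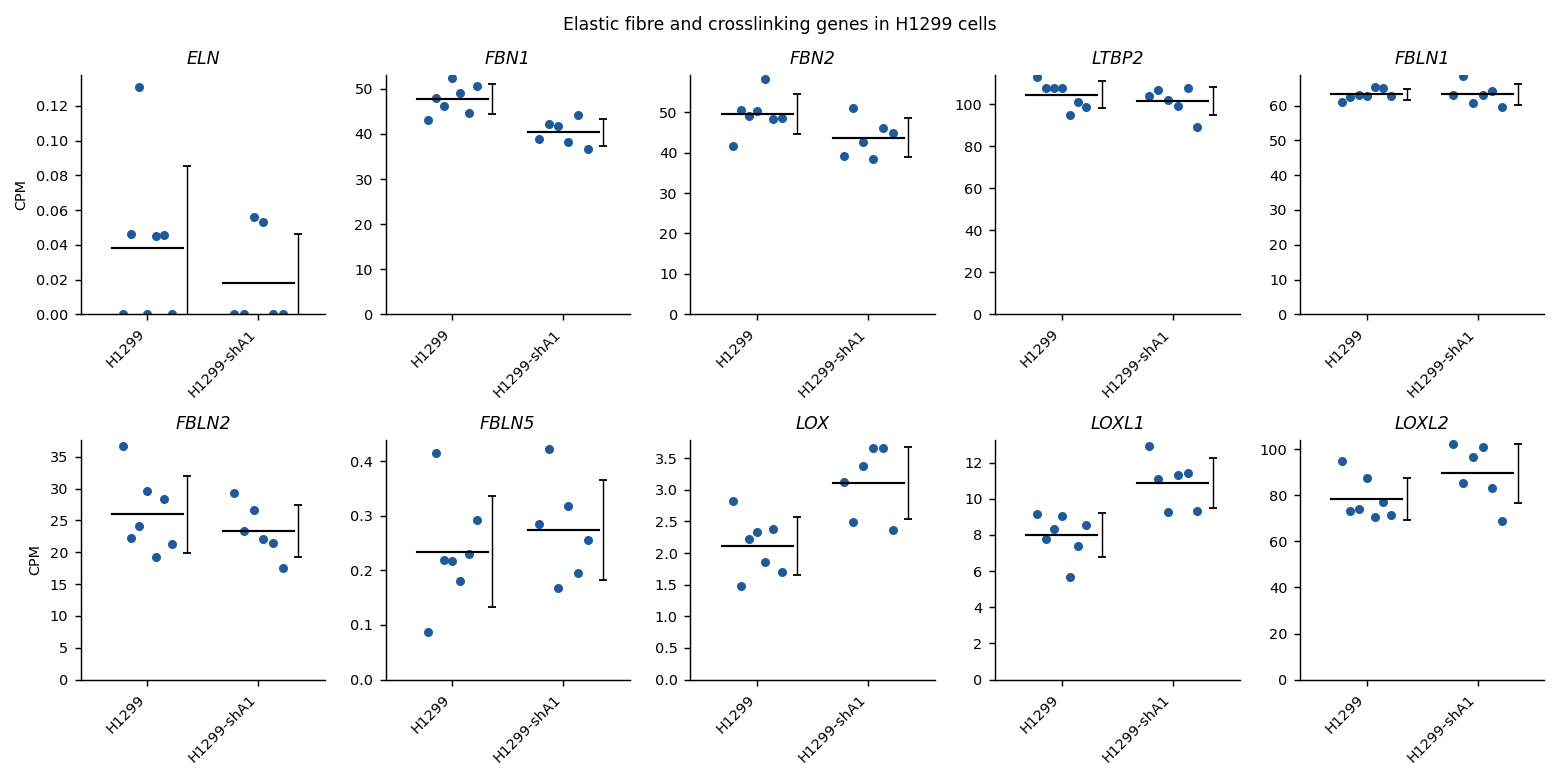
CPM of each of the 10 genes (linear axes from 0) in 7 H1299 and 6 H1299-shA1 libraries. Points are libraries, lines are means and bars give the SD; *LOXL1* is the gene whose groups do not overlap, at 5.66 to 9.18 and 9.27 to 12.9 CPM.

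The partners of these genes were counted in 3 further lists. Of the microfibril and fibre assembly partners, 17 genes such as the emilins, the microfibril-associated proteins and the other latent TGF-beta binding proteins, 14 were tested in the IMR90 comparisons. Read against them are the shares of all genes higher and lower: 38.8% and 35.9% in OIS against Grow, 22.7% and 23.2% in OIS-v-v against Grow-v-v, 37.1% and 36% in OIS-shA1 against Grow-shA1, 14.8% and 15.1% in Grow-shA1 against Grow and 18.8% and 17.1% in OIS-shA1 against OIS libraries. They were 9.09% and 8% with the CEBPB hairpin, 2.47% and 1.97% with shp53, 17.1% and 16.5% with both, and 8.65% and 6.93% in H1299 cells, and with lists this short no list is said to stand apart from them. In OIS against Grow libraries 11 fell and 1 rose, with a median log2 fold change of -0.78. *EFEMP1*, a fibulin of the elastic fibre also called fibulin-3, fell from 58.1 ± 4.50 to 4.13 ± 0.678 CPM (SD, n = 8; log2 fold change -3.76, standard error 0.08, edgeR adjusted p = 1.92e-25), and *MFAP4*, a microfibril-associated protein, from 20.7 ± 4.53 to 3.29 ± 1.23 CPM. *EFEMP1* fell as well in OIS-v-v against Grow-v-v libraries, from 27.1 ± 3.57 to 2.55 ± 0.673 CPM (SD, n = 5), where 6 partners fell and 2 rose, and in OIS-shA1 against Grow-shA1 libraries, where 12 fell and 1 rose and *FBLN7*, a further fibulin, went from 3.26 ± 0.657 to 0.711 ± 0.303 CPM. HMGA1 knock-down lowered 7 partners and raised 3 in Grow, among them *MFAP4* from 20.7 ± 4.53 to 6.27 ± 0.741 CPM (log2 fold change -1.73, standard error 0.12, edgeR adjusted p = 1.65e-11), and lowered 5 and raised 3 in OIS cells, with *EMILIN2* from 3.46 ± 0.560 to 6.32 ± 1.05 CPM. The CEBPB hairpin raised 3 and lowered 2, *MFAP4* among those lowered, from 6.67 ± 1.42 to 3.79 ± 0.678 CPM (log2 fold change -0.82). The p53 hairpin raised 1, and both hairpins together raised 4 and lowered 3. In H1299 cells, where 13 were tested, HMGA1 knock-down raised *MFAP5*, from 7.47 ± 1.0 to 12.4 ± 0.825 CPM, and lowered 4, with *LTBP1* going from 21.3 ± 1.70 to 16 ± 1.75 CPM.

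Of 8 crosslinking enzymes and activators, such as the other lysyl oxidase-like genes, the transglutaminase *TGM2* and *BMP1*, the protease that activates LOX, 6 fell and 1 rose in OIS against Grow libraries, 7 fell and 1 rose in OIS-shA1 against Grow-shA1 libraries, and 3 fell in OIS-v-v against Grow-v-v libraries. *LOXL3* fell from 29.7 ± 3.19 to 7.24 ± 1.05 CPM between Grow-shA1 and OIS-shA1 libraries (log2 fold change -2.02, edgeR adjusted p = 1.85e-17). HMGA1 knock-down lowered 2 in Grow and 3 in OIS cells and raised none there, and raised 1 of the 7 tested in H1299 cells. *TGM2* fell from 963 ± 437 CPM in OIS-v-v to 319 ± 158 with the CEBPB hairpin (log2 fold change -1.60, edgeR adjusted p = 0.0193) and to 171 ± 63.1 with both (log2 fold change -2.49, edgeR adjusted p = 0.000242), where 1 more of the list fell and 1 rose. None of the list passed with the p53 hairpin.

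Of 8 elastin-degrading proteases listed, 7 were found in the tables and 4 to 6 passed the filter on low counts. Cathepsin S (*CTSS*), an elastase of lysosomes, rose from 31.4 ± 4.45 to 168 ± 18.5 CPM in OIS against Grow libraries (log2 fold change 2.44, standard error 0.08, edgeR adjusted p = 8.68e-22) and to 333 ± 17.5 in OIS-shA1 libraries (log2 fold change 1.0 against OIS). It rose too from Grow to Grow-shA1 libraries, to 88.1 ± 18.1 CPM (log2 fold change 1.49), and from 39.3 ± 12.2 CPM in Grow-v-v to 196 ± 8.53 in OIS-v-v libraries (log2 fold change 2.32). Cathepsin K (*CTSK*) rose under the HMGA1 hairpin, from 53.1 ± 4.86 to 131 ± 19.7 CPM in Grow and from 48.9 ± 5.40 to 82.0 ± 8.56 in OIS cells. In all, 3 rose and 1 fell in OIS, 6 rose and none fell in OIS-v-v, 4 rose and 2 fell in OIS-shA1 against Grow-shA1, 4 rose under HMGA1 knock-down in Grow and 5 in OIS, and 3 in H1299, where *MMP2* went from 2.25 ± 0.393 to 4.07 ± 0.674 CPM. The largest rise in OIS-v-v was that of *MMP7*, from 0.356 ± 0.300 to 3.94 ± 2.48 CPM (log2 fold change 3.37, standard error 0.61, edgeR adjusted p = 0.000665). *MMP9* rose from 1.93 ± 1.0 to 12.7 ± 7.40 CPM with the p53 hairpin (log2 fold change 2.72, standard error 0.49, edgeR adjusted p = 0.00927), the 1 member of the list that passed there, and to 4.65 ± 0.945 CPM with both hairpins, where 2 rose and 2 fell and *CTSK* stood at 221 ± 16.7 CPM against 112 ± 9.61. With the CEBPB hairpin *CTSK* rose from 112 ± 9.61 to 196 ± 15.9 CPM (log2 fold change 0.81) and 2 others fell. In the difference between the effects of the HMGA1 hairpin in OIS and in Grow, 2 partners were higher and 2 lower, 1 enzyme was lower and 2 proteases were lower, and in the interaction of the CEBPB and p53 hairpins none of the 3 lists had a gene past the threshold.

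The genes most alike to each member over the IMR90 libraries were sought with the lower of its Pearson correlations over the 32 libraries of the first and the 25 of the second experiment, on log2(CPM + 1). The libraries share the contrast of OIS with Grow, which sets much of each value. *ELN* was most like *ACTA2*, smooth muscle actin, at 0.97. *LOX* and *LOXL2* were both most like *GPR176* at 0.96. *FBLN1* was most like *FAM83D*, a gene of the mitotic spindle, at 0.98, *LOXL1* like *TNFSF4* at 0.97, *FBN2* like *HACD2* at 0.97 and *FBLN5* like *AOPEP* at 0.97. Lower likeness was found for *FBN1*, at 0.88 with *DIP2C*, for *FBLN2*, at 0.85 with *NR2F2*, and for *LTBP2*, at 0.77 with *COL11A1*. Between members, *LTBP2* stood apart, with correlations to the other 9 of 0.22 to 0.60 over the first experiment and of -0.59 to 0.24 over the second.

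On hg19, the build of the counts, *ELN* (ENSG00000049540) lies from 73442119 to 73484237 on chromosome 7, *LOX* (ENSG00000113083) from 121398890 to 121413980 on chromosome 5, *FBLN1* (ENSG00000077942) from 45898118 to 45997015 on chromosome 22, *LOXL1* (ENSG00000129038) from 74218330 to 74244478 on chromosome 15 and *LTBP2* (ENSG00000119681) from 74964873 to 75079306 on chromosome 14. Reads were counted over all exons, untranslated ones included, and without regard to strand where a header states it. Reads of overlapping antisense genes can therefore not be told apart: 335 exon bases of *LOXL1*, or 9.19% of its exons, are shared with *LOXL1-AS1*, 120 bases on the same strand and 178 on the opposite strand of *LOXL2* with *LOXL2-AS1* and *ENTPD4*, 207 of *LTBP2*, 165 of *ELN* with *ELN-AS1*, 138 of *LOX* with *SRFBP1* and 56 of *FBN2* with *SLC27A6*. *FBN1* and the 3 fibulins share none.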

How the data were processed

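RNA-seq was analysed in 70 libraries of 11 groups in 3 experiments. Per the labels, the authors used STAR, hg19 and featureCounts (Subread) and deposited raw counts in 1 table for each experiment. The headers of the tables of the HMGA1 experiments record counting without regard to strand, and the table with the CEBPB and p53 hairpins has no header line that states it. The labels call the libraries biological replicates. Totals of 1903607 to 24890797 counts set the precision, so low genes are least certain in OIS replicate 4.

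The counts were tested with edgeR 4.0.16 in R 4.3.3 (TMM scaling, filterByExpr with a minimum count of 10, quasi-likelihood F test), each comparison on the libraries of its own groups and each interaction on its 4 groups. P-values were adjusted by the Benjamini-Hochberg method over all genes tested, and a gene was called at an adjusted p under 0.05 with no minimum fold. Standard errors were derived from the edgeR test, as the absolute log2 fold change divided by the square root of the F statistic. Intervals are the normal 95% intervals of that standard error and run narrow where groups hold few libraries. For *FBLN2* with the CEBPB hairpin the interval was 0.02 to 0.95 at an unadjusted p of 0.0621 by the edgeR test. The tests were checked on simulated counts, drawn without the 2 sets of libraries seen in the second experiment. Of 1.5-fold changes edgeR recovered from 50.7% in the interaction of the CEBPB and p53 hairpins to 89.6% in H1299 cells, with 59.7% for the CEBPB hairpin. False calls by edgeR made up from 1.4% of calls in that interaction to 6.5% in OIS-shA1 against OIS. By DESeq2 they reached 11.0% in H1299 cells. Only a small part of the genes was changed in each simulation, with directions drawn at random. In the data 9945 of the 13304 genes tested were called in OIS against Grow, so these shares do not check the scaling under changes that wide. The level of the gene targeted in the OIS-shp53 groups is not reported here. CPM values are scaled over the whole table of an experiment. The 10 genes and the lists were chosen with earlier results of these data known. From each comparison at most 3 list genes were named, those with the largest change among genes past the threshold, with a mean of at least 1 CPM and no overlap between the groups.

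In the second experiment, libraries with the same number deviated together, at correlations of 0.133 to 0.542 over all group pairs with OIS-v-v, and the number was the block where one is given. Libraries of different number within a set did so too, at 0.238 on average within 1 to 3 and 0.358 within 4 and 5. Pairs by number were therefore not told apart from the 2 sets. In the other experiments libraries with the same number did not deviate together on average over all genes. Their mean correlations were -0.016 to 0.053 in the first experiment and 0.024 in H1299 cells. Single members could still follow the number. In Grow-shA1 against Grow the block took the standard error of *ELN* from 0.19 to 0.10 and of *FBN2* from 0.09 to 0.04. For *FBLN2* it went from 0.14 to 0.15 and for *FBLN5* from 0.04 to 0.05. Alternatives were DESeq2 1.42.0, other scalings, filters, a fold limit of 1.5, the replicate block, each library left out in turn and, added after seeing the data, fits within the libraries numbered 1 to 3 and 4 and 5.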

Additional observations from a re-analysis of the deposited data

Results flagged for a closer look

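Single libraries far from the rest of their group were found in 7 of the 110 combinations of gene and group examined, where chance gives about 1 in 20. *FBLN1* read 34.6 CPM in OIS replicate 4, the shallow library, and 22.3 to 28 in the other OIS libraries. *LOXL1* read 59.5 CPM in Grow-shA1 replicate 5 and 39.6 to 48.8 in the others. In Grow-v-v cells *FBLN5* read 149 CPM in replicate 4 against 138 to 140, and *LOX* 530 CPM in replicate 5 against 838 to 916. *FBLN1* read 72.1 CPM in OIS-shp53 replicate 5 against 61.1 to 61.9, and 104 CPM in OIS-shCEBPB-shp53 replicate 5 against 108 to 109. *ELN* read 0.131 CPM, or 3 counts, in H1299 replicate 3 against 0 to 0.0462.

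The effect of the HMGA1 hairpin differed between OIS and Grow cells for 6 genes by the interaction test of edgeR. The difference on the log2 scale, OIS less Grow, was 1.31 for *LOX*, 0.65 for *LTBP2*, 0.43 for *FBN1*, 0.31 for *FBLN5*, -0.77 for *FBLN2* and -1.12 for *ELN*, with adjusted p-values from 1.07e-13 for *LOX* to 0.0194 for *ELN*.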

How the results depend on the processing

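Of 2607 alternative values of single genes, 2405 kept their direction and side of the threshold, 69 lost the call, 43 gained one and 90 changed sign, of which 1 had been called (*FBN1* in OIS-v-v against Grow-v-v, at 0.004 within the libraries numbered 4 and 5). The cause of these changes was not tested.

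With a fold limit of 1.5 the number of the 10 genes called went from 9 to 3 in Grow-shA1 against Grow, from 9 to 3 in OIS-shA1 against OIS, from 6 to 3 with the CEBPB hairpin, from 1 to 0 with the p53 hairpin and from 3 to 0 in H1299 cells, by the construction of that limit. With the replicate block it went from 1 to 5 with the p53 hairpin, where 22.7% of all genes were called. In the interaction of both hairpins the block took it from 0 to 1, where 0.75% of all genes were called. In H1299 cells, where libraries of equal number did not deviate together on average over all genes, the block gave 5 in place of 3. There 2407 of the 14840 genes tested were called. In the first experiment the block ended the calls of *FBLN5* in Grow-shA1 against Grow and of *FBLN5* and *LOXL2* in OIS-shA1 against OIS. Within the libraries numbered 1 to 3 the p53 hairpin called 6, where 4578 of 13447 genes tested were called, and the interaction 2, where 463 of 13947 were. Within those numbered 4 and 5 the p53 hairpin called 1, where 717 of 13457 were, and the interaction 4, where 294 of 13814 were. Leaving out each library in turn gave 1 to 3 genes with the p53 hairpin, 3 to 5 in H1299, 8 to 9 in Grow-shA1 against Grow, 8 to 10 in OIS-shA1 against OIS, 8 to 10 in OIS-v-v against Grow-v-v, 4 to 6 with the CEBPB hairpin and 5 to 6 with both. The shares of all genes called with the fold limit or with a library left out are not given here, so these counts describe the members alone.

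Signs changed in these cases, none past the threshold in the reported fit. With library sizes alone *ELN* in Grow-shA1 against Grow stood at 0.023 (0.031 with the block), *FBN2* and *FBLN1* in the HMGA1 interaction at -0.096 and -0.10, and *FBN1* with both hairpins at 0.023. *FBN1* with the p53 hairpin stood at -0.002 by DESeq2. *FBLN1* in H1299 stood at -0.002 by DESeq2 and with library sizes alone, -0.000 with upper-quartile scaling, -0.001 without the filter and -0.009 with the block. Within the libraries numbered 4 and 5 *LTBP2* in OIS-v-v stood at -0.11, and with the p53 hairpin *ELN* stood at 0.005, *FBN1* at -0.071 and *LTBP2* at 0.11. There the interaction was -0.015 for *FBN2*, -0.18 for *FBLN1* and -0.11 for *FBLN5*. Within the libraries numbered 1 to 3 *LOXL2* with the p53 hairpin stood at -0.028, *LTBP2* with both hairpins at -0.012, and the interaction was 0.020 for *ELN*, 0.033 for *LOXL1* and 0.023 for *LOXL2*. With one library left out, values that crossed 0 ran from -0.11 to 0.14 for *ELN* in Grow-shA1 against Grow, and in the HMGA1 interaction from -0.03 to 0.063 for *FBN2*, from -0.019 to 0.058 for *FBLN1* and from -0.073 to 0.069 for *LOXL1*. They ran from -0.038 to 0.066 for *FBN1* with the CEBPB hairpin, and with the p53 hairpin from -0.044 to 0.052 for *FBN1*, -0.04 to 0.22 for *LOX*, -0.016 to 0.13 for *LOXL1*, -0.042 to 0.099 for *LOXL2* and -0.18 to 0.015 for *LTBP2*. The interaction of both hairpins ran from -0.13 to 0.022 for *LOXL1*, and *FBLN1* in H1299 from -0.026 to 0.014.

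Over all genes, library sizes alone moved the median log2 fold change by 0.189 in OIS against Grow, by -0.115 in the HMGA1 interaction and by 0.102 with both hairpins. The share of called genes that were higher went from 49.4% to 60.3% in Grow-shA1 against Grow, from 51.9% to 66.2% in OIS against Grow, from 52.3% to 27.8% in OIS-shA1 against OIS, from 51.7% to 20.4% in the HMGA1 interaction, from 53.2% to 70.9% with the CEBPB hairpin and from 50.9% to 71.0% with both. Genes called with the p53 hairpin numbered 594, against 1091 by DESeq2, 3037 with the block and 4578 within the libraries numbered 1 to 3. With the CEBPB hairpin they numbered 2290, against 4270 with the block and 4408 within the libraries numbered 1 to 3, and with both hairpins 4502, against 7240 within that set. The interaction called 6 genes, against 30 by DESeq2, 104 with the block, 463 within the libraries numbered 1 to 3 and 294 within those numbered 4 and 5.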
